A study of Homo sapiens with 8 samples.

Results

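The chromosome 4 interval between 80 and 120 Mb of the human genome build hg38 held 8271 of the 547779 accessible sites found in any of 8 ATAC-seq libraries, and the rest of chromosome 4 held 20269. A site is a stretch of DNA made by joining all overlapping or touching accessible regions of the 8 libraries, and every site in the interval was taken. The interval was chosen by its number of accessible regions, which was higher in knockout than in wild-type cells. Differences between the genotypes within it are therefore descriptions and carry no test. ATAC-seq maps accessible chromatin with the transposase Tn5, which inserts sequencing adapters into DNA that is not covered by nucleosomes. The cells were U2OS, a human osteosarcoma line with an aneuploid and rearranged karyotype. They were wild-type (WT) cells or ASH1L-/- cells, in which CRISPR/Cas9 had deleted parts of exon 2 and of exons 11 and 12 of ASH1L. Each genotype was left without UV or irradiated with UV-C at 20 J per square metre and collected 3 h later, with 2 biological replicates in each of the 4 groups. The knockout was made by isolating individual colonies, and the labels do not give the number of colonies behind the 4 knockout libraries, so genotype and colony cannot be told apart. Nothing else in the labels says how the replicates were separated, and the p-values below measure the spread between these libraries only.

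ASH1L is a histone methyltransferase of the Trithorax group. Peak callers count reads above a local background, so the number of regions found in a stretch of genome depends on how open its chromatin is, on how many copies of it a cell carries and on how deeply the library was sequenced. In tumour lines with unstable karyotypes, separate colonies can carry different copy numbers of the same chromosome arm.

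The lists held between 158198 and 220783 regions. Depth, the average genomic pileup recovered from each list, lay between 1.39 and 5.87, and both extremes were replicates of ASH1L-/- cells without UV. Replicate 1 of that group was the deepest. The promoter of ASH1L held a region in all 8 lists, and the short deletions cannot be seen in peak lists. The ASH1L gene body held 14, 14, 11 and 9 regions in WT cells and 4, 3, 4 and 9 in ASH1L-/- cells. Among markers of bone-forming and mesenchymal cells, the promoters of COL1A1, SPARC and RUNX2 were accessible in all 8 lists, that of COL1A2 in 7 and that of TWIST1 in 2. Among markers of other cell types, EPCAM and CDH1 had an accessible promoter in all 8 lists, PTPRC and ALB in 1 each and CD3E in 0. Here and below, a promoter reaches 1 kb to either side of the start of any annotated transcript of a protein-coding gene, and libraries are given in the order no UV replicates 1 and 2, then UV replicates 1 and 2.

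A site was called knockout-only when all 4 ASH1L-/- libraries had a region there and no WT library had one. The site with the second highest mean rank of fold enrichment is printed, and it need not stand for the others. The window, chr4:116829400-116829599, is intergenic and gives 200 bases of the plus strand, centred on the summit.
knockout-only 2: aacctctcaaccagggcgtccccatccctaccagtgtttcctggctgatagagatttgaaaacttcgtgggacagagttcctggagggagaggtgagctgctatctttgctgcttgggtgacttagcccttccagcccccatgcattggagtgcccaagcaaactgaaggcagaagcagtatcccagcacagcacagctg
The site with the highest mean rank lies in an intron of BMPR1B, the gene of a bone morphogenetic protein receptor. The third is intergenic, and its nearest start site is that of PDHA2 at 66115 bp. The next lies 451 bp from the start site of HERC5, a ubiquitin ligase induced by interferon. The promoter of HERC5 as a whole held a region in 6 lists, of which 2 were WT.
Fold enrichment, the ratio of the summit pileup to the local background of the same library, was 5.97 and 6.91 without UV and 10.1 and 8.13 after UV at the BMPR1B site. At the HERC5 site it was 2.70 and 5.57 without UV and 6.20 and 6.38 after UV.

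The interval held 1599, 1842, 1381 and 1561 regions in the WT libraries. It held 4072, 2459, 2397 and 3076 regions in the ASH1L-/- libraries. The groups did not overlap, although replicate 2 of the ASH1L-/- cells without UV was the shallowest of all 8 libraries. The rest of chromosome 4 held between 5414 and 6668 regions in WT and between 5956 and 8836 in ASH1L-/- libraries. The ratio of interval regions to regions on the rest of the chromosome was 0.267, 0.276, 0.255 and 0.260 in WT cells. It was 0.461, 0.413, 0.385 and 0.396 in ASH1L-/- cells. The means were 0.264 ± 0.0092 and 0.414 ± 0.0336 (SD, n = 4 each), a ratio of 1.56. Without the deepest library the difference of the log2 ratios was 0.60 in place of 0.64. Per 100000 autosomal regions, the interval held 932 ± 52.8 regions in WT and 1626 ± 168 in ASH1L-/- libraries (SD, n = 4), 1.75 times as many. The same measure over the rest of chromosome 4 was 3523 ± 139 and 3928 ± 107, a ratio of 1.11, and these groups did not overlap either.

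**Figure D1:**
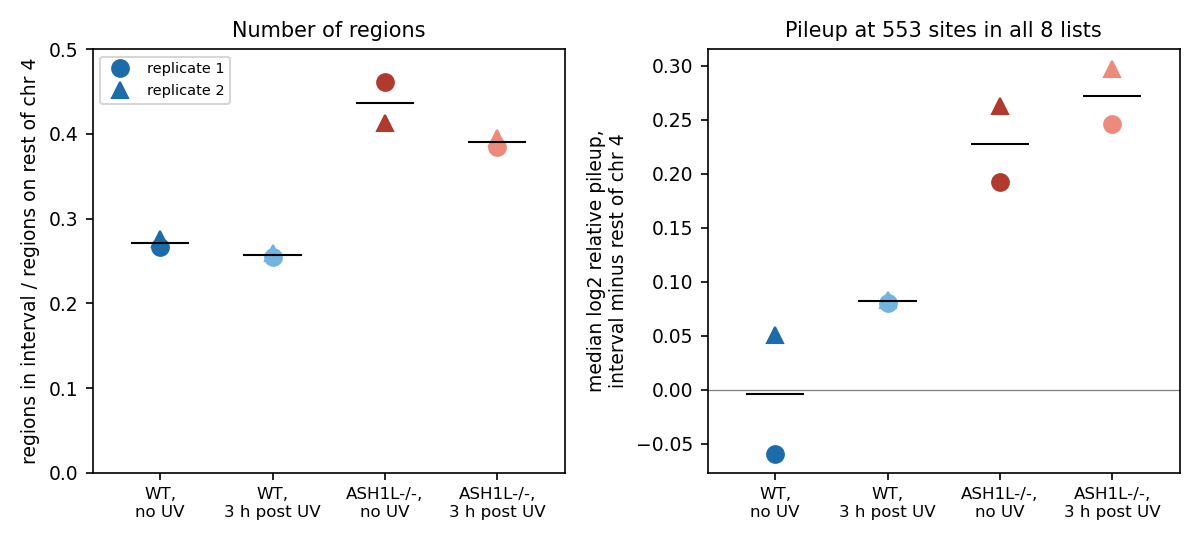
Each point is 1 library (circles replicate 1, triangles replicate 2) and each bar the mean of a group of 2. The left axis gives regions of the interval divided by regions on the rest of chromosome 4, and the right axis the log2 relative pileup at sites present in all 8 lists, interval minus rest of the chromosome. The 4 ASH1L-/- libraries lie at 0.385 or more on the left and at 0.19 or more on the right, above all WT libraries.

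The additional regions of ASH1L-/- cells lay in the weaker part of the lists. Each list was divided into quartiles by fold enrichment. In the lowest quartile, the ratio of interval regions to those on the rest of the chromosome was 0.264 ± 0.0329 in WT and 0.524 ± 0.0444 in ASH1L-/- libraries (SD, n = 4), 1.98 times as high. In the second quartile the ratio between the genotypes was 1.80, and in the third it was 1.44. In the highest quartile the values were 0.265, 0.281, 0.272 and 0.281 in WT and 0.296, 0.287, 0.298 and 0.292 in ASH1L-/- cells. These still did not overlap, but their means differed by only 1.07 times. The highest quartile held 391 to 478 interval regions per WT library and 410 to 613 per ASH1L-/- library. The median interval region ranked at percentile 49.9, 46.7, 53.0 and 52.6 of its list in WT cells. In ASH1L-/- cells it ranked at 43.1, 40.5, 41.3 and 41.6. On the rest of the chromosome the mean of this median percentile was 51.7 in WT and 51.4 in ASH1L-/- libraries.

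Of the 8271 sites, 5052 (61.1%) had a region only in ASH1L-/- libraries, 1384 (16.7%) only in WT libraries and 1835 in both. The share with regions only in ASH1L-/- libraries was 40.9% on the rest of the chromosome and 36.1% over all sites. Most of these sites rested on few libraries. In all, 5377 sites of the interval had a region in 1 library, and the deepest library alone accounted for 1827. At 2 or more libraries of a single genotype, 959 sites were found only in ASH1L-/- and 100 only in WT cells, and at 3 libraries the counts were 202 and 20. At the strictest level, 64 sites (0.774%) were knockout-only, where the background over all sites was 0.187% and the share on the rest of the chromosome was 0.252%. The opposite pattern, a region in all 4 WT and no ASH1L-/- library, was found at 2 sites against a background of 0.0769%. Both were intergenic, at chr4:98166335-98166877, whose nearest start site is that of STPG2, and at chr4:100074931-100075548, nearest to that of DDIT4L.

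The 64 knockout-only sites were spread over 24 of the 40 bins of 1 Mb, with at most 6 in a bin and a median distance of 302 kb to the next. Their fold enrichments ranged from 2.01 to 10.1 with a median of 3.27, and 24 of them had a mean percentile above 50. They were 1 promoter site, 24 sites in gene bodies and 39 intergenic sites. Outside the interval, 10.9% of 958 knockout-only sites were promoter sites. Of all sites, promoter sites made up 4.34% in the interval and 8.36% over the genome. The median GC content of the summit windows of the 64 sites was 50.8%. It was 43.0% for all sites of the interval and 51.5% for knockout-only sites elsewhere. The letters TGANTCA, the site of the AP-1 transcription factors, were present in 6 of the 64 windows of 200 bases (9.38%). The share was 9.94% over all interval sites, 28.2% over the 553 interval sites present in all 8 lists and 11.0% over all sites of the genome. GGAATG, the letters of TEAD factors, was in 9.38% of the knockout-only windows and 12.4% of all interval windows. TGTGGT, the letters of RUNX factors, was in 17.2% and 16.2%. The letters of the CTCF motif were in 1 window, the E-box CACGTG in 2 and the CRE letters TGACGTCA in 0, each searched on both strands. Over all interval sites these were in 1.98%, 1.72% and 0.0725% of windows, and over all sites of the genome in 3.22%, 2.86% and 0.158%. For TEAD and RUNX the share over all sites of the genome was 13.1% and 16.2%.

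The 10 strongest knockout-only sites by mean percentile had fold enrichments between 2.70 and 10.1. Besides those described above, 3 lay in introns of DKK2, ARHGEF38 and CCSER1, and 3 were intergenic with LEF1, RASGEF1B and GPAT3 as the nearest start sites, at 213932, 33306 and 48080 bp. The site in DKK2, which encodes a secreted antagonist of Wnt signalling, had fold enrichments of 4.51, 4.18, 4.06 and 7.08. At the printed site, 256076 bp from the start site of TRAM1L1, they were 5.53, 10.0, 4.35 and 9.18. These values are not normalised between lists.

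The pileup itself was compared at the 553 interval sites and 2068 sites on the rest of the chromosome that had a region in all 8 lists. Relative pileup is the summit pileup plus 1, divided by its median over all autosomal sites of this kind in the same library, which removes depth. On the log2 scale, the median interval site lay -0.06, 0.05, 0.08 and 0.08 from the median site on the rest of the chromosome in WT cells. In ASH1L-/- cells it lay 0.19, 0.26, 0.25 and 0.30 above it. The means were 0.04 ± 0.07 and 0.25 ± 0.04 (SD, n = 4), a difference of 0.21 or 1.16-fold. The local background at the same sites, which the peak caller takes from the same reads, differed by 0.27, or 1.20-fold. It was -0.08, -0.05, -0.03 and 0.01 in WT and 0.28, 0.22, 0.19 and 0.24 in ASH1L-/- cells. The fold enrichment, which divides one by the other, differed by 0.01, and the values of the 2 genotypes overlapped. Pileup and surrounding background thus shifted together at sites that were open in every library.

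Site by site, relative pileup was higher in all 4 ASH1L-/- than in all 4 WT libraries at 137 of the 553 sites (24.8%), where the background over all such autosomal sites was 4.76%. It was lower in all 4 at 28 sites (5.06%), with a background of 5.55%. On the rest of the chromosome 105 of 2068 sites (5.08%) were higher. The median log2 difference over the 553 sites was 0.32, against 0.01 over all autosomal sites of this kind. The middle quartiles reached from -0.06 to 0.68 and the extremes from -1.26 to 2.15. Of the 553 sites, 399 lay above 0. The median was 0.27 over 133 promoter sites and 0.34 over 420 sites outside promoters. Of the promoter sites, 33.1% were higher and 8.27% lower in all 4 ASH1L-/- libraries, and of the others 22.1% and 4.05%, a difference that was not tested.

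The shift was not even along the interval. The number of regions was counted in bins of 1 Mb as a share of each library's autosomal regions. It was higher in all 4 ASH1L-/- libraries in 25 of 40 bins (62.5%), where the background over all autosomal bins was 9.5%. It was lower in all 4 in 6 bins (15%), against a background of 15.1%. On the rest of the chromosome, 19 of 150 bins were higher and 6 lower. The 5 bins with the largest excess began at 94, 95, 113, 114 and 115 Mb and held 38.9% of the net excess. Without them the log2 difference in region number was 0.44. The number of regions followed the pileup at sites present in all 8 lists. Over the 37 bins with at least 5 such sites, Pearson's r between the 2 log2 differences was 0.93 and Spearman's rho was 0.90, and over 2467 autosomal bins r was 0.80. The points of this correlation share libraries and depth, and bins are not replicates. Median pileup was over 0.25 higher on the log2 scale in 17 of the 37 bins (45.9%), where the background over autosomal bins was 10.3%. In all 17 the number of regions was also higher in all 4 ASH1L-/- libraries, which choosing the interval by region number favours. Over the autosomes this held in 116 of 253 such bins. Median pileup was over 0.25 lower in 8 bins (21.6%), against a background of 17.0%. Of these 8, 6 had fewer regions in all 4 and 0 had more, and over the autosomes 301 of 419 such bins had fewer. Of the 12 bins between, 5 had more regions in all 4. Of the 64 knockout-only sites, 45 lay in the 17 bins with raised pileup, 10 in the 12 between and 0 in the 8 with lowered pileup. The others lay in the 3 bins with fewer than 5 sites.

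**Figure D2:**
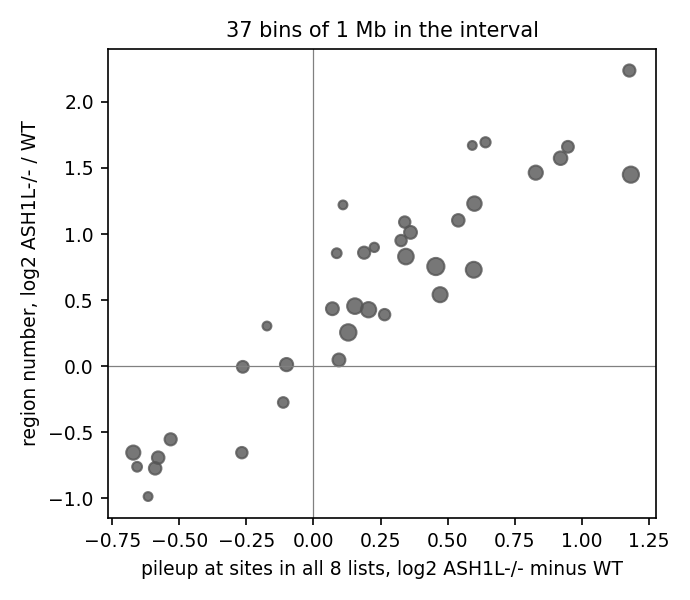
Each point is 1 of the 37 bins of 1 Mb in the interval with at least 5 sites present in all 8 lists, and its area grows with the number of such sites. The horizontal axis is the median log2 difference in relative pileup, ASH1L-/- minus WT, and the vertical axis the log2 ratio of region numbers per 100000 autosomal regions. Bins with raised pileup have more regions, over a range from -0.67 to 1.18 in pileup. Bins with lowered pileup have fewer, except those beginning at 117 and 118 Mb. These lie at 0.305 and 0.013 on the vertical axis.

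Consecutive bins with the same sign of the median pileup difference formed 6 stretches. These were drawn from the measured differences and are given without a test. From 80 to 90 Mb, 159 of 193 sites present in all 8 lists had more pileup in the mean of the ASH1L-/- libraries, the bin medians reached 1.05 to 1.45 times the WT level, and the number of regions was 1.5 times as high. This stretch began before the interval, at 70 Mb. The single bin from 90 to 91 Mb was lower at 0.92 times, with overlapping region numbers. From 91 to 97 Mb, 46 of 47 sites were higher, bin medians reached up to 1.93 times the WT level and the number of regions was 2.93 times as high. From 97 to 104 Mb the direction turned. Only 6 of 82 sites were higher, bin medians were 0.63 to 0.83 times the WT level, and the stretch held 235, 306, 231 and 264 regions in WT and 168, 147, 185 and 220 in ASH1L-/- libraries, a ratio of 0.66 per 100000 regions. From 104 to 117 Mb, 176 of 188 sites were higher, bin medians reached up to 2.27 times the WT level and the number of regions was 2.42 times as high. From 117 to 120 Mb, 8 of 34 sites were higher, and region numbers overlapped between the genotypes at a ratio of 0.94 per 100000 regions. This stretch ran on to 127 Mb outside the interval. The 3 raised stretches covered 29 of the 40 bins and 428 of the 553 sites present in all 8 lists. They held 63 of the 64 knockout-only sites, a count favoured by drawing the stretches from the same genotype difference. At the ends of the interval, the bins just outside and just inside the start had 2.24 and 1.93 times as many regions in ASH1L-/- cells, and those just inside and just outside the end had 0.68 and 0.48 times as many.

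The profile was alike in the 4 ASH1L-/- libraries. In the bin from 94 to 95 Mb, pileup on the log2 scale against the WT mean was 0.94, 1.02, 0.90 and 0.83 in ASH1L-/- libraries and between -0.17 and 0.13 in WT libraries, with 17 of 17 sites higher. In the bin from 98 to 99 Mb, it was -0.89, -0.75, -0.44 and -0.47 in ASH1L-/- libraries and between -0.16 and 0.18 in WT libraries, with 0 of 19 sites higher. From 113 to 114 Mb, 26 of 26 sites were higher with a median ratio of 2.27. The bin from 115 to 116 Mb held 6, 18, 11 and 13 regions in WT and 167, 86, 69 and 106 regions in ASH1L-/- cells, 8.17 times as many per 100000 regions, but only 2 sites present in all 8 lists. In wider bins of 5 Mb, ASH1L-/- libraries were above all WT libraries in 6 of 8 bins. The exceptions were 85 to 90 Mb, at a ratio of 1.25, and 100 to 105 Mb, at 0.84. In 2 of the 6 bins the median pileup went the other way, and both bins span parts of a raised and a lowered stretch. From 95 to 100 Mb there were 1.55 times as many regions at 0.69 times the pileup, with 17 of 54 sites higher, and from 115 to 120 Mb 1.75 times as many at 0.89 times the pileup, with 14 of 42 higher. From 110 to 115 Mb the relative pileup was 0.86, 0.95, 0.78 and 0.82 in ASH1L-/- libraries and within 0.04 of 0 in all WT libraries. The interval ended within a lowered stretch, and from 120 to 125 Mb outside it the number of regions was 0.63 times the WT level. Before the interval, from 75 to 80 Mb, the number was 1.51 times as high and 101 of 104 sites had more pileup. The lists hold no measurement of DNA content, so a difference in copy number and a difference in accessibility over whole stretches cannot be told apart.

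**Figure D3:**
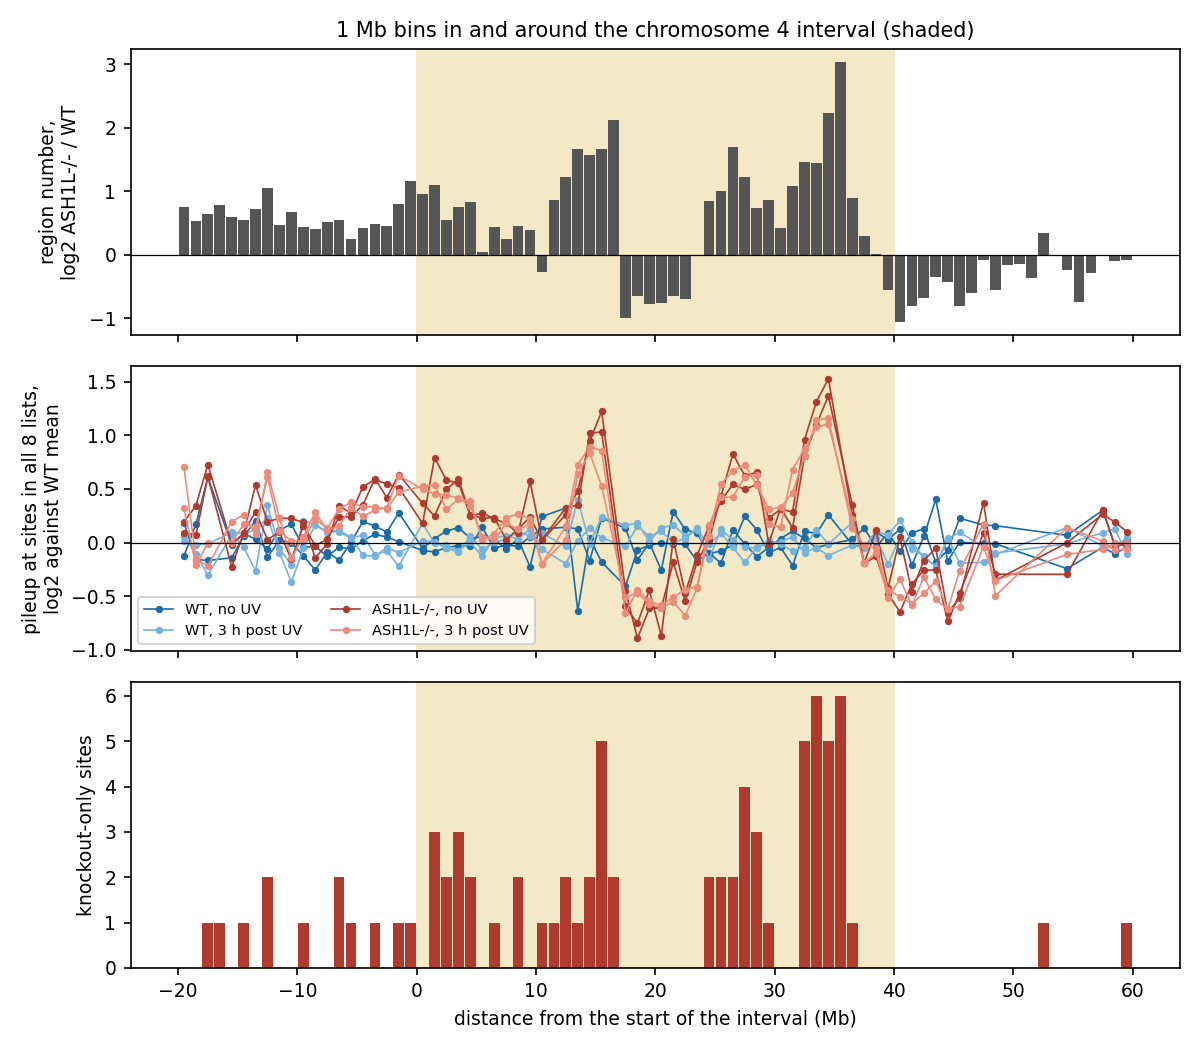
Bins of 1 Mb from 20 Mb before the interval to 20 Mb after it, with the interval shaded and distance in Mb from its start on the horizontal axis. The top panel gives the log2 ratio of region numbers, the middle panel the median relative pileup of each library against the WT mean in bins with at least 5 sites present in all 8 lists, and the bottom panel the number of knockout-only sites. The 4 ASH1L-/- lines move together and fall below the WT lines between 17 and 24 Mb from the start, where 0 knockout-only sites lie.

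The interval contained 157 protein-coding genes, of which 151 held a region in some library. Gene bodies were compared by their number of regions as a share of each library's autosomal regions. This share was higher in all 4 ASH1L-/- libraries for 35 genes (23.2%), where the background over all autosomal genes was 2.1%. It was lower in all 4 for 11 genes (7.28%), against 3.49%. Promoters differed less in presence than in pileup. A promoter region was found for 127, 126, 124 and 127 genes in WT and for 132, 125, 126 and 132 genes in ASH1L-/- libraries, and 117 genes had a promoter region in all 8 lists. No gene had a promoter region in all 4 libraries of one genotype and in 0 of the other. Among the 117 promoters, relative pileup was higher in all 4 ASH1L-/- libraries at 36, where the background was 3.89%, and lower at 10, with a background of 6.97%. All 36 lay in the raised stretches and all 10 in the lowered ones, which were drawn partly from the same promoter sites. Of the genes with more regions in the body, 35 of 35 lay in raised stretches, and of the 11 with fewer, 10 lay in lowered stretches. The raised stretches held 111 of all 157 genes and 86 of the 117 promoters.

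Genes of DNA repair, chromatin and RNA modification, 10 in all, had a promoter region in all 8 lists. Of these promoters, 3 were higher and 2 lower in all 4 ASH1L-/- libraries, beside 36 and 10 of the 117 promoters of the whole interval. The share of higher promoters was about that of the interval, and the larger share of lower ones rested on 2 promoters. SMARCAD1 (chr4:94207611-94291292, plus strand) encodes a chromatin remodeller that acts in DNA end resection. Its promoter had a relative pileup of 2.52, 2.46, 2.2 and 2.05 in WT and 4.07, 5.04, 4.22 and 3.89 in ASH1L-/- cells, 1.86 times as high with no overlap. Its gene body held 3, 2, 2 and 2 regions in WT and 17, 9, 5 and 12 in ASH1L-/- cells. ABRAXAS1, a scaffold of a BRCA1 complex, was 1.64 times as high at its promoter and HELQ, a helicase in crosslink repair, 1.36 times. CENPE, a kinetochore motor protein, lies in the stretch from 97 to 104 Mb. Its promoter was at 0.87, 1.23, 0.95 and 1.3 in WT and at 0.70, 0.61, 0.66 and 0.62 in ASH1L-/- cells, 0.60 times the WT level. RAP1GDS1, which is on the list but encodes an exchange factor for small GTPases and has none of its roles, was at 0.71 times. The promoters of TET2, a dioxygenase of methylated DNA, of H2AZ1, a histone variant gene, and of METTL14, a subunit of the RNA methyltransferase for adenosine, overlapped between the genotypes with ratios of 1.24, 0.70 and 0.99, as did those of PRDM8 and HNRNPD. Over gene bodies, 2 genes were higher (ABRAXAS1 and SMARCAD1) and 2 lower (RAP1GDS1 and CENPE).

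All 13 signalling genes had a promoter region in all 8 lists, of which 4 were higher and 1 lower in all 4 ASH1L-/- libraries, again a share about that of the 117 promoters of the interval. CAMK2D (chr4:113418054-113761927, minus strand), a calcium-dependent kinase, had a promoter relative pileup of 2.61, 3.09, 2.55 and 2.33 in WT and 5.19, 6.30, 5.00 and 4.55 in ASH1L-/- cells, 1.99 times as high. Its body held 15, 20, 18 and 20 regions in WT and 71, 51, 53 and 56 regions in ASH1L-/- cells, and with 3 it had the most knockout-only sites of any gene. DKK2 was 1.72 times as high at its promoter. MAPK10, a kinase of the JNK family, and PTPN13, a phosphatase, share 1 divergent promoter, which was 1.25 times as high and counts for both. NFKB1, the gene of the p105 and p50 NF-kB subunits, was at 0.81, 1.29, 1.18 and 1.28 in WT and at 0.77, 0.70, 0.60 and 0.73 in ASH1L-/- cells, 0.62 times the WT level. LEF1, a transcription factor of Wnt signalling, had the largest ratio of this group at 2.07, but its WT values reached 1.3 and its ASH1L-/- values fell to 0.96. The ratio for BMPR1B was 1.7, also with overlap, since replicate 2 of WT without UV stood at 1.97 and the other WT libraries at or below 0.66. Other members, FGF5, BMP3, EGF, PPP3CA and CXXC4, overlapped with ratios between 0.72 and 1.45. Gene bodies were higher for BMPR1B, DKK2, LEF1 and CAMK2D and lower for NFKB1 and PPP3CA, the catalytic subunit of calcineurin.

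**Figure D4:**
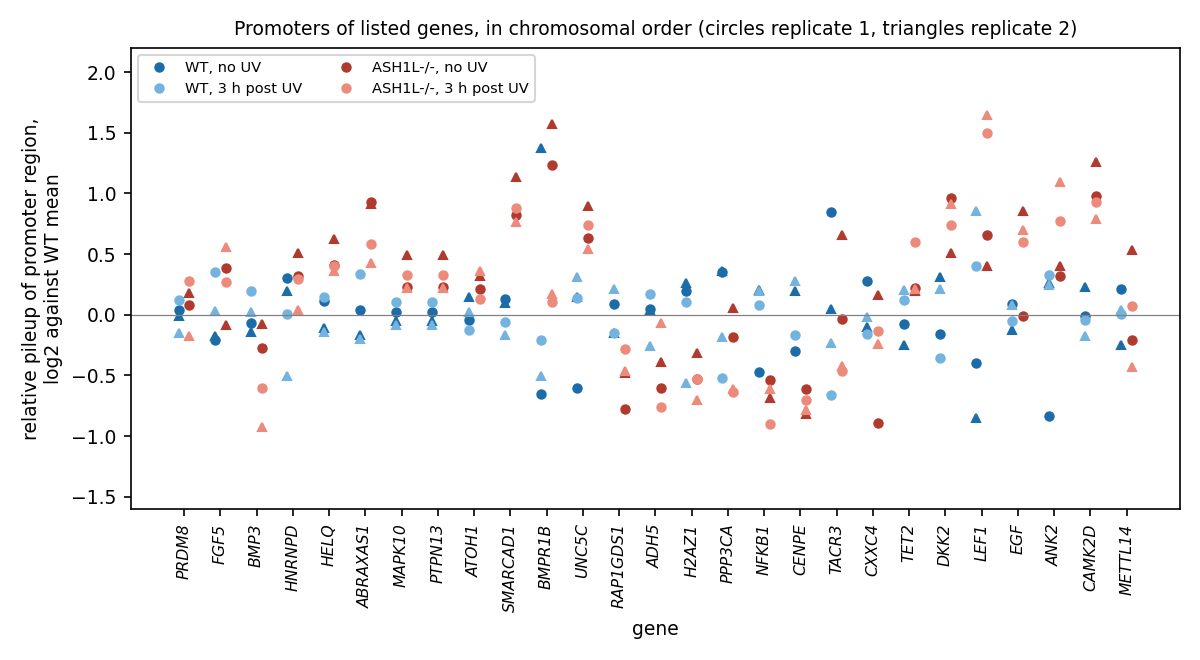
Relative pileup of the promoter region on the log2 scale against the WT mean for 27 listed genes with a promoter region in all 8 lists, in chromosomal order. Each point is 1 library, with circles for replicate 1 and triangles for replicate 2. Promoters from RAP1GDS1 to CENPE lie at or below the WT mean in ASH1L-/- libraries except 1 PPP3CA value, while those of SMARCAD1, UNC5C and CAMK2D lie wholly above the WT values.

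Of the 8 neuronal genes, 7 held a region and 4 had more regions in the body in all 4 ASH1L-/- libraries, beside 35 of 151 in the interval (23.2%) and 2.1% of autosomal genes. ANK2, a membrane adaptor protein, held 27, 26, 16 and 28 regions in WT and 102, 53, 71 and 79 in ASH1L-/- cells. The netrin receptor gene UNC5C and the collagen gene COL25A1 were also among them, at 2.90 and 1.83 times the WT number per 100000 regions. Among the 6 promoters of this list found in all 8 lists, UNC5C was higher (1.63 times) and the others, ATOH1, TACR3 and ANK2 among them, overlapped. NEUROG2 had a promoter region in 2 libraries and no region in the gene body. The 7 alcohol dehydrogenase genes, clustered between 99070978 and 99435510 in the lowered stretch, were mostly closed. ADH1A, ADH1B and ADH1C had no region in any library. Only ADH5, the form expressed in most tissues, had a promoter region in all 8 lists, at 0.73 times the WT level with overlap. The other 3 had one in some lists. Of these, 1 had it in all 4 ASH1L-/- libraries and 1 WT library, 1 in 2 WT libraries only and 1 in 1 library of each genotype. The 5 bone and tooth matrix genes, DSPP, DMP1, IBSP, MEPE and SPP1, had at most 4 regions in any library, and none had a promoter region in all 8 lists. SPP1, the gene of osteopontin, had one in 7. DMP1 counted as lower over its body only as a share of each library's autosomal regions. Its raw counts, 2 in each WT library and 2, 1, 1 and 1 in ASH1L-/- libraries, overlapped.

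Knockout-only sites lay in the bodies of 18 genes. The 10 genes with the most, ties taken by position, included RASGEF1B, MAPK10, FAM13A, CCSER1, BMPR1B, UNC5C, ARHGEF38, DKK2 and CAMK2D. The bodies of 8 of them held more regions in all 4 ASH1L-/- libraries, which the choice of these genes by regions found only in those libraries favours. The others were MAPK10, at 1.21 times, and CCSER1, at 0.88 times the WT number although it held 2 knockout-only sites. CCSER1 is 1478 kb long, and long genes offer more positions for such sites. NDST4, METAP1 and UBE2D3 were singled out after their values had been seen. NDST4 (chr4:114827763-115113876, minus strand), which encodes an enzyme that modifies heparan sulfate, held 1, 2, 1 and 1 regions in WT and 53, 20, 17 and 32 regions in ASH1L-/- libraries, 22.2 times as many per 100000 regions. Its promoter had a relative pileup of 0.71, 0.31, 0.59 and 0.78 in WT and 1.63, 1.78, 2.22 and 3.41 in ASH1L-/- cells, the largest promoter ratio of the interval at 3.83. The lowest ratio was that of METAP1, an aminopeptidase gene in the lowered stretch, at 0.53. The promoter of UBE2D3, which encodes a ubiquitin-conjugating enzyme, was at 10.0, 10.8, 10.3 and 7.30 in WT and at 5.53, 7.17, 6.22 and 5.95 in ASH1L-/- cells, 0.65 times the WT level.

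UV had no part in the choice of the interval and was tested. The log2 ratio of interval regions to regions on the rest of the chromosome was -1.54 ± 0.40 without UV and -1.66 ± 0.35 after UV (SD, n = 4). The difference of -0.12 did not pass the test (p = 0.514, adjusted p = 0.771, exact permutation test, two-sided, over 70 assignments), in which the spread includes the difference between the genotypes. It was -0.08 within WT and -0.16 within ASH1L-/- cells. Within each genotype, both UV libraries lay below both libraries without UV, at -1.97 and -1.95 against -1.91 and -1.86 in WT, and at -1.38 and -1.34 against -1.12 and -1.28 in ASH1L-/- cells. With UV labels permuted within genotype, p was 0.0556 for number, the smallest that these 36 assignments allow, 0.111 for pileup and 0.722 for background (exact permutation, two-sided, not adjusted), so this form cannot pass 0.05. The relative pileup at sites present in all 8 lists differed by 0.07 (p = 0.457, adjusted p = 0.771, exact permutation test, two-sided), with 0.09 in WT and 0.04 in ASH1L-/- cells. The local background differed by 0.01 (p = 0.857, adjusted p = 0.857, exact permutation test, two-sided), with 0.05 in WT and -0.03 in ASH1L-/- cells. The smallest p that this test allows is 0.0286, and the adjustment covers these 3 tests. Fold enrichment in place of pileup gave a difference of 0.08 with p = 0.0286 (exact permutation test, two-sided, not adjusted).

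Sites that every UV library held and every library without UV lacked numbered 28 in the interval (0.339%), where the background over all sites was 0.686%. The opposite pattern was found at 3 sites, with a background of 0.0969%. The strongest gained site, chr4:118461396-118462072, is intergenic and 108640 bp from the start site of PRSS12, with fold enrichments of 13.0 and 13.3 in WT and 6.38 and 11.0 in ASH1L-/- cells. The second, chr4:117479568-117480172, holds the AP-1 letters and had 14.0 and 11.4 in WT and 8.70 and 7.34 in ASH1L-/- cells. The third, chr4:102780350-102780951, lies 19716 bp from the start site of MANBA, with 7.08, 12.3, 5.51 and 6.29. Of the 28 gained sites, 12 (42.9%) held the AP-1 letters in their summit window. The share was 9.94% over all interval sites, 28.2% over interval sites present in all 8 lists and 11.0% over all sites. The median GC content of the gained sites was 40%, against 43% over all interval sites and 50.8% for the knockout-only sites. None of the 28 gained sites was a promoter site.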

How the data were processed

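Chromatin accessibility was measured in 8 libraries, which were grouped by genotype and UV from their titles. The authors trimmed reads with cutadapt 1.9.1, aligned them with Bowtie2 2.4.5 to hg38 without chromosome Y, filtered them with SAMtools 1.7, bedtools 2.29.2 and Picard, and called peaks with MACS2 2.2.7.1 in each library separately (versions from the submitters' processing notes). The deposited lists gave for each summit a fold enrichment (a ratio of pileup to local background), a −log10 p-value, a −log10 q-value and a score, and none was normalised between libraries. The score was not used.

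Records sharing an interval were joined into 1 region with the summit of highest fold enrichment. Pileup and background were solved from the fold enrichment, (pileup + 1) / (background + 1), and the Poisson p-value, and the calculation was tested on simulated data. The lowest background of a list is its depth. Regions of all lists were merged into sites, and a list held a site if any region overlapped it. Summit windows came from hg38 and genes from GENCODE release 44. A region is placed by its summit, and gene bodies that overlap share regions. Depth is unknown in reads, since the lists hold no read counts.

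The members and gene lists were chosen with earlier results of these data known, and genotype differences carry no test. UV differences were tested by an exact permutation test over samples, with Benjamini-Hochberg adjustment. Named genes were all members of 5 lists set by position and textbook role (bone and tooth matrix, alcohol dehydrogenases, repair and chromatin, signalling, neuronal), with the 10 genes holding most knockout-only sites. Named sites were the 10 knockout-only, up to 3 wild-type-only and 3 UV-gained sites of highest mean percentile of fold enrichment. Alternatives were q-value limits of 0.05 and 0.01, the top quartile, every summit record, bases covered, other references, fold enrichment, means, promoter and other sites, bins of 5 Mb, the 5 largest bins left out and each library left out. The stretches were added after seeing the data. Some listed genes and sequences are not reported here. Scripts ran in Python 3.11.15 with numpy 2.4.6, pandas 2.3.3, scipy 1.17.1 and pysam 0.24.0.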

Additional observations from a re-analysis of the deposited data

Results flagged for a closer look

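The share of interval regions whose local background rose above the genome-wide mean of the library moved in opposite directions after UV in the 2 genotypes. It was 36.1% and 30.9% without UV and 43.7% and 46.1% after UV in WT cells, a rise of 11.4 percentage points. In ASH1L-/- cells it was 68.7% and 69.2% without UV and 59.0% and 49.4% after UV, lower by a difference of -14.7 percentage points. Every library after UV lay on its own side of those without UV in both genotypes. The difference between the genotypes was not tested. On the rest of chromosome 4 the differences were 6.88 and -6.10 percentage points. The deepest and the shallowest library are both ASH1L-/- cells without UV, and the part of depth in this was not tested.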

How the results depend on the processing

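The genotype difference in the log2 ratio of interval regions to the rest of the chromosome (0.64) stayed above 0 under every alternative run, from 0.60 to 0.68 with 1 library left out. It was 0.49 at a q-value of 0.01 or below, 0.0936 in the top quartile, 0.57 with every summit record, 0.53 in bases covered, 0.82 against all other autosomes and 0.44 without the 5 largest bins. The pileup difference (0.21; 0.18 to 0.24 with 1 library left out) was 0.31 against all other autosomes and 0.0098 with fold enrichment. The background difference (0.27; 0.25 to 0.28) was 0.41 against all other autosomes and 0.22 with means. The 64 knockout-only sites became 33 at q of 0.01 or below and 11 in the top quartile. They became 35 where a region had to cover at least 50% of the site. This alternative was added after seeing the data because regions always lie within their site. The share of interval sites was 0.774% in the main setting, 0.802% at q of 0.01 or below and 1.3% in the top quartile. Over all sites the share was 0.187%, 0.245% and 0.505%. With the 50% rule the shares were 0.425% and 0.124%. With 1 library left out, which loosens the rule, the count was 70 to 149. It was 149 without replicate 2 of ASH1L-/- without UV, and 119 and 100 without replicates 1 and 2 of ASH1L-/- with UV. The 28 UV-gained sites became 15 in the top quartile and 33 to 56 with 1 library left out, of which 56 without replicate 1 of WT with UV, 48 without replicate 1 of ASH1L-/- without UV and 43 without replicate 2 of WT without UV. The bins higher in all 4 ASH1L-/- libraries numbered 25 to 27 with 1 library left out, and 6 of 8 bins of 5 Mb.

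The UV difference in number (-0.12; -0.16 to -0.08 with 1 library left out) turned to 0.0184 in the top quartile, with p = 0.686 (exact permutation). The UV difference in pileup (0.04 to 0.09 with 1 library left out) passed the threshold with fold enrichment, at 0.0761 and p = 0.0286 (exact permutation). The UV difference in background turned to -0.0163 outside promoters, and ranged from -0.0066 to 0.0224 with 1 library left out, below 0 without replicate 2 of WT with UV (-0.0029), of ASH1L-/- without UV (-0.0066) or of ASH1L-/- with UV (-0.0032). Fits without 1 library permuted UV labels within genotype, over 18 assignments. In this form they cannot pass the threshold, since 0.0556 is the smallest p they allow. The replicate number did not pair the libraries: deviations of same-numbered libraries correlated between -0.23 and 0.19. With the replicate number as a block, p was 0.556, 0.5 and 0.944 for number, pileup and background (exact permutation, two-sided), and no call changed. Permuted within genotype, the p-values were 0.0556, 0.111 and 0.722 (exact permutation, two-sided), of which none could fall below 0.0556.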
